A study of Mus musculus with 3 samples.

Results

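The AP-1 family genes Fos, Fosb, Fosl1, Fosl2, Jun, Junb, Jund, Atf3, Maff and Batf were followed in stimulated mouse macrophages. They were chosen by name, 10 of the 55536 annotated genes in the gene tables. The cells were bone marrow-derived macrophages of the C57BL/6J strain, and all of them had received 100 ng/ml Lipid A, the Toll-like receptor 4-activating part of lipopolysaccharide, for 30 min. RNA of the cytosolic fraction was depleted of ribosomal RNA and sequenced as 3 libraries of 1 group, called replicates 1, 2 and 3 here. The labels give the 3 libraries 1 donor record, so the spread between them may be technical, and SDs and p-values measure that spread only. No unstimulated cells were analysed here, so each value is a level at that time and none is described as an induction.

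AP-1 is a family of transcription factors that bind DNA as pairs. Each protein carries a basic region that contacts DNA and a leucine zipper that holds the pair together. Fos proteins mainly pair with Jun proteins, whereas Jun proteins can pair with each other. In cells given growth factors or bacterial products, kinases activate factors already bound at the Fos and Jun promoters, transcription starts within minutes, and many of the messages carry AU-rich elements that mark them for fast decay. In macrophages, AP-1 acts beside NF-kB at cytokine and chemokine genes.

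The shared DNA-contacting part is visible in the genes themselves. In Fos, Fosb, Fosl1 and Fosl2, coding exon 3 has 108 bases and encodes much of the basic region. The exons are given on the strand of the message, from GENCODE M21 transcripts on GRCm38. Capitals mark bases at which all 4 Fos-family exons are identical. They lie at chr12:85475592-85475699 (+) in Fos, chr7:19306559-19306666 (-) in Fosb, chr19:5454413-5454520 (+) in Fosl1 and chr5:32150421-32150528 (+) in Fosl2.
Fos-201: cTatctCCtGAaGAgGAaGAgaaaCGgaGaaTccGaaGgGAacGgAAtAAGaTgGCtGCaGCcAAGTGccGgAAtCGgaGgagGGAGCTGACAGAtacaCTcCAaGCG
Fosb-201: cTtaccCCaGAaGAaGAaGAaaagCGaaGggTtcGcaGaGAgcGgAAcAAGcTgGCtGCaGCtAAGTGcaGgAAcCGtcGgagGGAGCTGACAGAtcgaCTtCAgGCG
Fosl1-201: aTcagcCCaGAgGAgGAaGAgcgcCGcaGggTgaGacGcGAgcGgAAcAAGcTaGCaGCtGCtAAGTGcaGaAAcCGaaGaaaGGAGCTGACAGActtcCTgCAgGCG
Fosl2-201: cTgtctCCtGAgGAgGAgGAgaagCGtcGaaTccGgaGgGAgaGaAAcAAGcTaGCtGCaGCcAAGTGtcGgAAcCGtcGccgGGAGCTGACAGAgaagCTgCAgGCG

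All 4 Fos-family exons agreed at 62 of 108 bases (57.4%). Fos and Fosb were identical at 83 bases (76.9%), Fos and Fosl2 at 84 (77.8%), and Fos and Fosl1 at 72 (66.7%). The closest exons still differ at many positions along their length. The deposited posterior SD of the counts, which grows where reads are shared between genes, was 0 reads for Fos, Fosb, Fosl2, Atf3, Maff and Batf in each library.

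Transcripts of the Fos family were dominated by Fos. Fos (ENSMUSG00000021250.13, mm10 chr12:85473890-85477273, + strand), which encodes c-Fos, the founding partner of Jun, had 290, 756 and 662 TPM in replicates 1, 2 and 3 (570 ± 246, mean ± SD, n = 3). TPM are counts divided by transcript length and scaled to each library's total. Replicate 1 was the lowest, and replicates 2 and 3 lay close together in these values. The second transcript table gave Fos 129, 538 and 173 TPM, with replicate 1 lowest but replicate 3 far below replicate 2. Fosb (ENSMUSG00000003545.3, chr7:19302696-19310051, - strand), encoding FosB, had 13.0, 45.0 and 45.5 TPM (34.5 ± 18.6, n = 3). It was also lowest in replicate 1. Fosl2 (ENSMUSG00000029135.10, chr5:32135801-32157842, + strand), encoding Fra-2, a Fos protein without the strong activating region of c-Fos, had 11.7, 14.2 and 15.8 TPM (13.9 ± 2.08, n = 3).

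Fosl1 (ENSMUSG00000024912.6, chr19:5447547-5455946, + strand), encoding Fra-1, was the member near zero. Replicate 2 held 2.04 expected counts of it, and replicates 1 and 3 held 0. A count of 0 allows 3 counts, which is 0.128 CPM (counts scaled to a common library total) in replicate 1 and 0.0838 CPM in replicate 3 on library totals. The gene overlaps Ccdc85b on the opposite strand, which had 104, 226 and 219 counts.

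The Jun family was present through all 3 genes. Junb (ENSMUSG00000052837.6, chr8:84974484-84978718, - strand), encoding a Jun protein that activates more weakly than c-Jun at many sites, had 287, 334 and 359 TPM (327 ± 36.9, n = 3). Jun (ENSMUSG00000052684.4, chr4:95049034-95052222, - strand), encoding c-Jun, had 128, 170 and 137 TPM (145 ± 22.2, n = 3). Jund (ENSMUSG00000071076.6, chr8:70698949-70700616, + strand), encoding the Jun protein known for steady expression in resting cells, had 35.3, 36.3 and 44.4 TPM (38.7 ± 4.99, n = 3). Within each library the order was Junb, Jun, Jund. The Jund level is less certain than the others, since the second transcript table gave it 1.43 times the counts of the gene table, against 1.05 to 1.19 times for the other 8 members with a ratio. Its posterior SD was 21.2, 28.8 and 29.9 reads, and an antisense gene, Gm11175, lies across it with 42.6, 71.8 and 138 counts.

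Of the remaining members, Atf3 stood highest. Atf3 (ENSMUSG00000026628.13, chr1:191170296-191218039, - strand) encodes a stress-response factor that pairs with Jun proteins and is known to restrain cytokine genes after Toll-like receptor signals in mouse macrophages. It had 154, 235 and 141 TPM (177 ± 50.9, n = 3). Maff (ENSMUSG00000042622.14, chr15:79346621-79359076, + strand), encoding a small Maf protein that lacks an activating region, had 10.7, 6.44 and 6.13 TPM (7.76 ± 2.57, n = 3). Batf (ENSMUSG00000034266.6, chr12:85686669-85709087, + strand), encoding a Jun partner that acts with IRF factors in immune cells, had 5.50, 8.81 and 4.56 TPM (6.29 ± 2.23, n = 3). Maff was highest in replicate 1, while Atf3 and Batf were highest in replicate 2 on this scale.

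**Figure D1:**
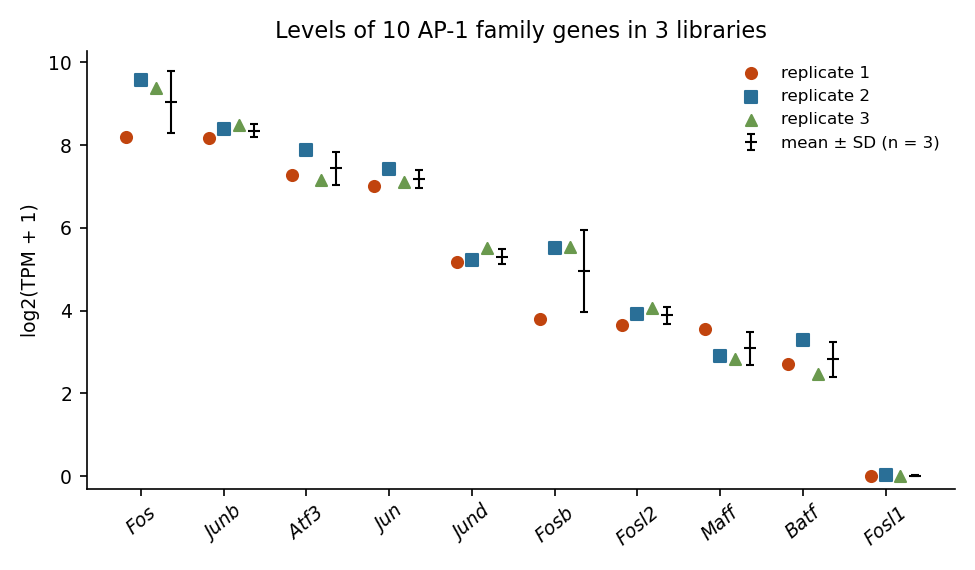
Levels of the 10 AP-1 family genes as log2(TPM + 1), with 1 point per replicate and the mean ± SD (n = 3) beside the points, ordered by mean TPM. Fos, Junb, Atf3 and Jun lie at 100 TPM or more on average, Fosl1 lies at zero, and the widest SDs are those of Fos and Fosb.

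By mean TPM the order was Fos, Junb, Atf3, Jun, Jund, Fosb, Fosl2, Maff, Batf and Fosl1. Levels of at least 1, 10 and 100 TPM were reached by 9, 7 and 4 members. Among the 55536 genes, 10033 averaged at least 1 TPM and 480 at least 100 TPM. Neighbours in this order were compared within libraries on log2(TPM + 1), a scale that understates differences of low genes. Pairs and their direction were themselves taken from mean TPM in these 3 libraries. Sorting thus largely fixed a positive mean difference, so the comparison describes the spread and cannot test the order. In 7 of the 9 neighbouring pairs the mean difference exceeded its SD and had the same sign in 3 of 3 libraries. Jund and Fosb did not differ beyond their spread, with differences of 1.38, -0.30 and -0.04 in replicates 1, 2 and 3. Maff and Batf did not either, at 0.85, -0.40 and 0.36. Fos and Junb differed by 0.69 ± 0.60, but by only 0.02 in replicate 1. Atf3 and Jun differed by 0.25 ± 0.21, with 0.04 in replicate 3. In the exact two-sided sign-flip permutation test, each of the 7 pairs had p = 0.25 (adjusted p = 0.321 over 9 pairs), and 0.25 is the smallest p that n = 3 allows.

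The classical partners were set against each other in the same way. Fos exceeded Jun by 1.17, 2.14 and 2.26 on the log2(TPM + 1) scale, a mean of 1.86 ± 0.60 (3 of 3 libraries, exact two-sided sign-flip permutation p = 0.25, n = 3). As a ratio of TPM, Fos was 2.26, 4.44 and 4.82 times Jun. The size depended on the transcripts and scale counted. It was 1.34 over protein-coding transcripts only, an alternative chosen after seeing the data, and 0.83 in CPM, which does not divide by length. Fos lay above Jun in each of these.

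Summed by family, the balance between Fos and Jun messages shifted between libraries. The 4 Fos genes held 33.7%, 50.8% and 51.1% of the members' summed TPM in replicates 1, 2 and 3. The 3 Jun genes held 48.1%, 33.6% and 38.2%. Atf3, Maff and Batf together held 18.2%, 15.6% and 10.7%. On these gene totals the Jun family held the larger share in replicate 1 and the Fos family in replicates 2 and 3. Over protein-coding transcripts only, an alternative chosen after seeing the data, the order in replicates 2 and 3 turned round. The Fos genes then summed to 267, 528 and 493 TPM and the Jun genes to 450, 540 and 541 TPM, with the Jun family higher in each library.

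Differences between libraries were then tested on counts. Library totals were 23403552, 50435201 and 35785896 expected counts for replicates 1, 2 and 3, so replicate 2 carries the least counting error. Protein-coding genes held 22.3%, 34.4% and 24.3% of the TPM in the same order, which moves TPM between libraries. CPM scaled with TMM factors are therefore used for this comparison. All 10 of 10 macrophage markers had 10 TPM or more. The 9 stromal markers summed to 268, 0.606 and 1.31 CPM, with 8 of 8 tested markers highest in replicate 1. Neutrophil markers summed to 89.0, 77.8 and 94.7 CPM, of which Csf3r made up 81.7, 61.5 and 78.0 CPM, while 3 of 4 tested neutrophil markers were lowest in replicate 1. T and NK markers summed to 0.044, 0.184 and 0.087 CPM, and B-cell markers to 13.6, 15.4 and 10.9 CPM. The nuclear RNA list, led by Malat1, summed to 4597, 1412 and 7391 CPM. In bulk RNA, fewer cells that express a gene and less RNA per cell cannot be told apart.

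Fos and Fosb shared a pattern, low in replicate 1 and high in replicate 3. Fos had 987, 1368 and 1707 CPM in replicates 1, 2 and 3. Its log2 CPM deviated from the gene's mean by -0.42, 0.05 and 0.37. Fosb had 87.0, 196 and 265 CPM, with deviations of -0.93, 0.25 and 0.68. Replicate 1 was thus the lowest library for both genes on CPM as on TPM, also with DESeq2 size factors, with library totals and in the second transcript table. Fosb was lower in replicate 1 than in each other library by 1.5-fold or more, as were 83 of the 10065 genes that averaged at least 100 counts (0.825%). The ratio of Fos to Fosb was 11.3, 6.97 and 6.44 in CPM, so Fosb differed between libraries by more than Fos did. The stromal markers were highest in replicate 1. The neutrophil markers S100a8 (2.40, 5.60 and 4.85 CPM), S100a9 (4.08, 10.02 and 10.4 CPM) and Mpo (0.355, 0.423 and 0.929 CPM) were lowest there, as Fos and Fosb were. Mpo rested on just 8, 23 and 32 counts. Csf3r, the other neutrophil marker tested, went the other way and was highest in replicate 1 (81.7, 61.5 and 78.0 CPM). The median deviations of these 4 tested markers were -0.62, 0.08 and 0.37. The part of either cell type in these values was not tested.

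Of the Jun genes, Junb and Jund followed another pattern, which Jun did not share. Junb had 938, 723 and 1064 CPM and Jund 105, 71.5 and 120 CPM. Jun was the steadiest member, at 785, 694 and 758 CPM. Fosl2 resembled Junb and Jund, at 148, 122 and 178 CPM. Junb, Jund and Fosl2 were lowest in replicate 2 and highest in replicate 3 with TMM factors, DESeq2 size factors and library totals and in the second table. The nuclear RNA list was also lowest in replicate 2 and highest in replicate 3, and its part in these values was not tested. This order is not particular to AP-1 genes. The median deviations of the macrophage markers had it too, at 0.02, -0.14 and 0.11. Those of the listed genes upstream of Fos and Jun did not, at 0.04, -0.002 and -0.03. The share of all tested genes with this order was not counted. Jun was lowest in replicate 2 with TMM factors but in replicate 3 on library totals without a factor, where the median of all tested genes shifted by 0.11 (log2) in replicate 2.

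Maff moved the other way from Fosb. It had 37.7, 15.2 and 18.6 CPM, with deviations of 0.78, -0.54 and -0.24, and replicate 1 stood above both others in the same 4 comparisons. Atf3 was nearly level, at 561, 540 and 463 CPM. Batf had 8.30, 8.69 and 6.21 CPM. Both were lowest in replicate 3.

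**Figure D2:**
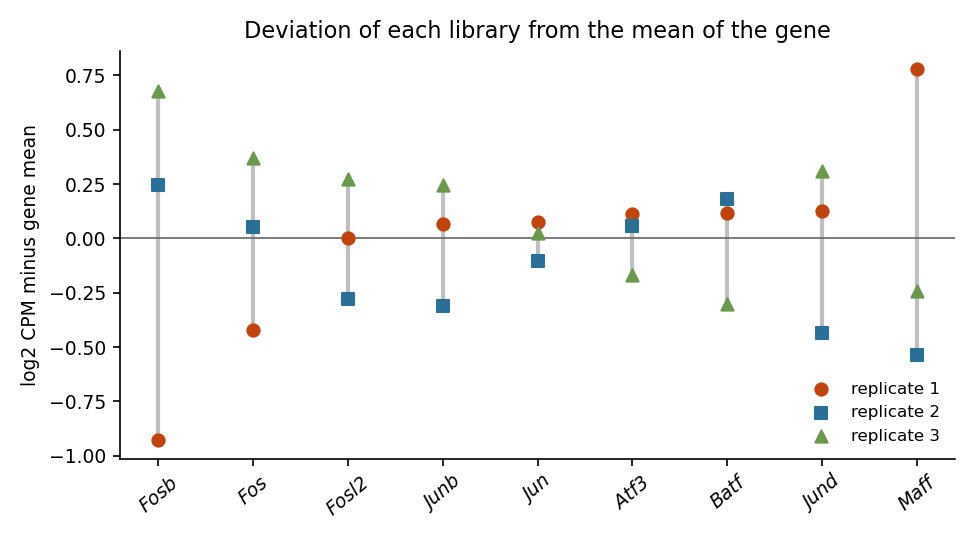
Deviation of each library from the gene's mean, in log2 CPM with TMM factors, for the 9 members tested, with 1 point per replicate and a bar spanning them. Fosb and Fos have replicate 1 at the bottom, Maff has it at the top, and Junb, Jund and Fosl2 have replicate 2 at the bottom.

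The chi-square index of dispersion, which asks whether libraries differ by more than Poisson counting error, was adjusted by Benjamini-Hochberg over 13237 genes. It called 9 of the 9 members tested, and 66.8% of all genes tested. On the second transcript table it also called 9 members, and 70.1% of genes. Fosl1 was below the count filter. The members' calls are read against these shares, since deep genes pass with small differences. Without replicate 2, the deepest library, 33.1% of tested genes were called, and 9 members still were. Without replicate 1 the share was 55.3%, and without replicate 3 it was 51.2%. Replicate 2 also stood apart in other ways. The mean chi-square was 125 for replicates 1 and 2, 164 for 2 and 3, and 30.9 for 1 and 3. Protein-coding genes held 84.7%, 90.8% and 84.7% of the counts in replicates 1, 2 and 3. The part of depth in the lower share was not tested. Adjusted p in this test ran from 0.000384 for Batf to values under 1e-300 for Fos, Fosb and Junb. Of the members tested, 2 were lowest in replicate 1 (31.0% of all tested genes) and 3, namely Jun, Atf3 and Maff, were highest there (29.8%). On library totals Atf3 was highest in replicate 2 instead.

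The size of the spread differed widely between members. The highest library exceeded the lowest by 3.05-fold for Fosb, 2.49-fold for Maff, 1.73-fold for Fos and 1.68-fold for Jund. It did so by 1.47-fold for Junb, 1.46-fold for Fosl2 and 1.40-fold for Batf. Atf3 at 1.21-fold and Jun at 1.13-fold varied least. Over the same 10065 genes the median ratio was 1.21, and 86.7% of genes were under 1.5-fold. A larger ratio than that of Fosb was found in 1.30% of these genes, larger than that of Maff in 1.98% and larger than that of Fos in 6.32%. For Jun, 73.0% of genes had a larger ratio. The biological coefficient of variation from edgeR was 34.6% for Fosb, 32.2% for Maff, 20.4% for Fos and 12.3% for Jun, against a median of 14.4%.

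**Figure D3:**
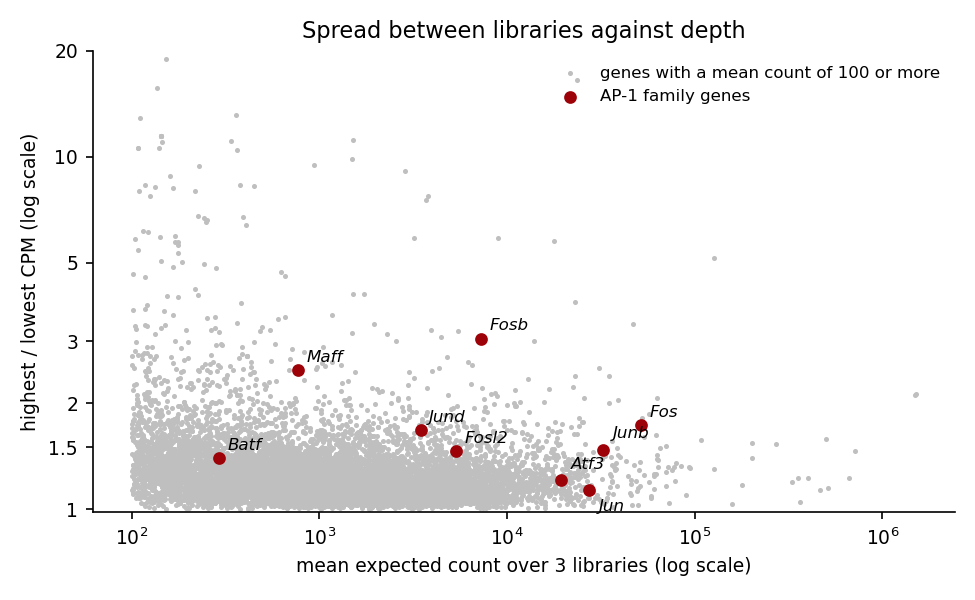
Ratio of the highest to the lowest library in TMM-scaled CPM against mean expected count, both on log axes, for genes averaging at least 100 counts (grey) and 9 AP-1 family genes (red). Fosb at 3.05-fold and Maff at 2.49-fold lie above most grey points, while Jun at 1.13-fold and Atf3 at 1.21-fold lie among them; 28 genes lie above the top of the axis.

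The genes whose 3 deviations lay nearest to those of Fos, among 9701 protein-coding candidates, were Tada2a, Dnaaf2 and Impdh1. Their Euclidean distances from Fos were 0.0085, 0.018 and 0.024 in log2 CPM over 3 libraries. Tada2a, for example, had 3.15, 4.39 and 5.51 CPM. With only 3 points per gene, such closeness is a description of these libraries.

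Fosb is known for 2 proteins made by alternative splicing. Full-length FosB ends in an activating region, and the shorter ΔFosB lacks it. The difference is a segment of 140 bases in the last exon, at chr7:19305007-19305146 (GRCm38, - strand), that is kept in Fosb-201 and removed from Fosb-206 and Fosb-207. The segment is printed because the shares of the proteins' messages turn on it, with capitals for the GT and AG at its ends, the bases that flank a typical intron. The joint in Fosb-206 is printed with 15 bases to each side (outer ends chr7:19304992-19305161), and its capitals mark the stop codon.
Fosb segment: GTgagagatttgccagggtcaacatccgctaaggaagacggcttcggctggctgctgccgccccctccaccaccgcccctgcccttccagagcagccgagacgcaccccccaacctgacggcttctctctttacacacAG
Fosb short joint: ggcccgctggccgagTGAagttcaagtcct

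The stop codon begins at the first base after the joint. Fosb-201 has 338 codons, Fosb-206 has 237 and Fosb-207 has 201. Fosb-207 also lacks the 108-base exon of the basic region, and with it much of the basic region. Neither short transcript has a base that Fosb-201 lacks, so only reads across the joints are particular to them.

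**Figure D4:**
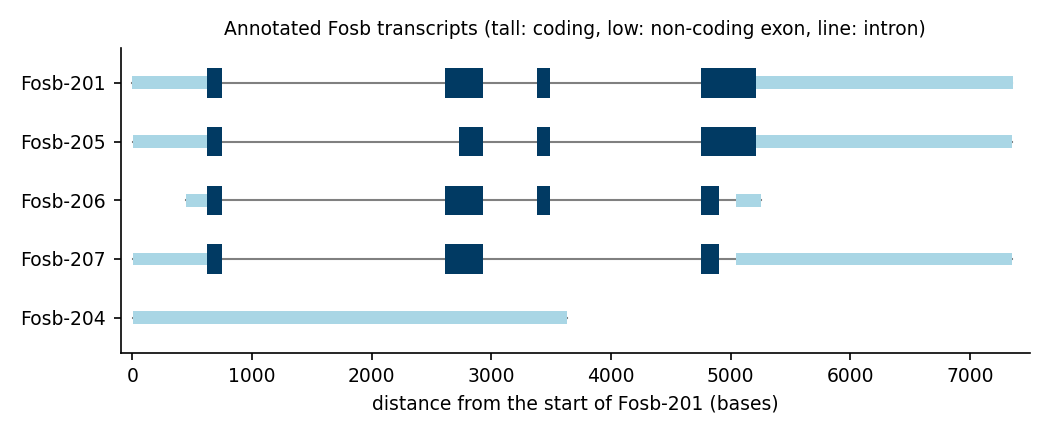
Annotated Fosb transcripts drawn to scale by distance from the start of Fosb-201, with coding exon as tall boxes, non-coding exon as low boxes and introns as lines. Fosb-206 and Fosb-207 lack the 140-base segment of the last exon, Fosb-207 also lacks the 108-base exon, and Fosb-204 retains introns.

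Most Fosb message was of the full-length kind. In the first transcript table, transcripts that keep the segment held 70.7%, 73.6% and 70.9% of the Fosb TPM in replicates 1, 2 and 3 (71.7% ± 1.60, n = 3). Transcripts without the segment held 27.6%, 24.2% and 25.2% (25.6% ± 1.73, n = 3). The second transcript table, made from the reads by another route, gave 24.3%, 23.9% and 26.7% (25.0% ± 1.54, n = 3) for transcripts without it. The summed share of TPM thus stayed within a few points while the Fosb level differed 3.05-fold between libraries in CPM. This did not hold on counts. As a share of Fosb counts, not divided by length, these transcripts held 20.6%, 15.3% and 15.1% in the first table, highest in replicate 1.

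The split between the short transcripts was less settled. Fosb-207, which lacks the 108-base exon too, held 17.6%, 11.4% and 10.4% of the Fosb TPM in the first table but 9.16% in replicate 1 and 4.90% in replicate 2 in the second. Both tables put Fosb-207 highest in replicate 1. Fosb-206 moved the other way, at 9.93%, 12.8% and 14.8% in the first table and 15.1%, 19.0% and 21.7% in the second. The steady sum thus joins 2 opposite shifts. Fosb-204, which retains introns, held 1.77%, 2.24% and 3.91% of the TPM in the first table.

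Fos had a short companion transcript. Fos-201, which encodes the 380-codon protein, held 83.8%, 62.1% and 65.6% of the Fos TPM in the first table. Fos-202, an annotated processed transcript without a coding region, held 15.7%, 37.4% and 33.9%. In counts Fos-202 held just 3.89%, 11.2% and 10.2%, since TPM divides by length and Fos-202 has 631 bases. The second table gave it 33.9%, 51.1% and 44.1% of the TPM. Of its 631 bases, 607 (96.2%) lie in Fos-201, so few reads are its own. Fos-201 alone had 243, 470 and 435 TPM, with replicate 1 again lowest.

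**Figure D5:**
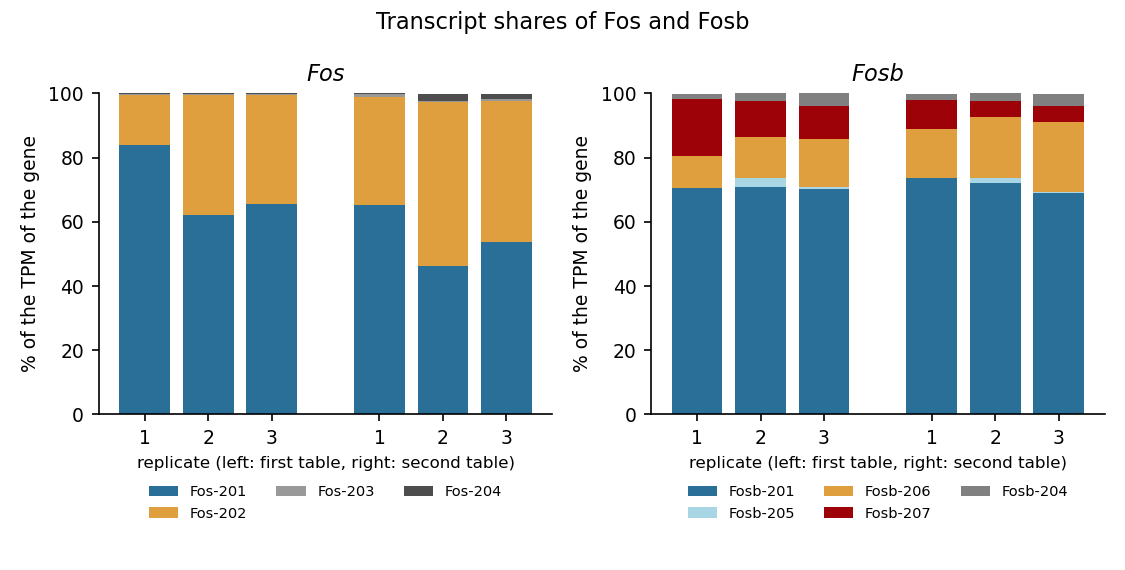
Share of each annotated transcript in the TPM of Fos (left panel) and Fosb (right panel), as stacked bars per replicate, with the first transcript table at the left of each panel and the second at the right. The Fosb-206 and Fosb-207 segments together stay near 25% in both tables, while the Fos-202 segment ranges from 15.7% to 51.1%.

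The other members had 1 main transcript each. Jun and Jund have a single annotated transcript of 1 exon, and Junb-201 held at least 99.95% of the Junb TPM in each library. Atf3-201 held 100% of the Atf3 TPM in replicates 1 and 3 and 94.5% in replicate 2. The rest was Atf3-202, at 5.47% in replicate 2, which the second table put at 35.8% in that library. All 517 bases of Atf3-202 lie in Atf3-201, so this share is uncertain. Maff-201 held 97.8%, 94.9% and 87.6% of the Maff TPM in the first table and 62.6%, 65.8% and 50.4% in the second. Retained-intron transcripts held 4.63%, 2.39% and 6.84% of the Fosl2 TPM in the first table and 8.50%, 13.2% and 13.0% in the second.

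The 3′ ends of the messages were searched for ATTTA, the core of AU-rich elements, in the main coding transcript. Fos had 4 matches in 815 bases of 3′ UTR, Jun 4 in 1233, Maff 4 in 1221 and Fosl2 8 in 4653. Atf3 had 3, Junb 2, and Fosb and Jund 1 each, and Batf had none. Thus 8 of the 9 members with a tested transcript had a match, as did 66.5% of 11386 genes, and 5 of 9 had 3 or more, as did 33.9%. The longer TTATTTATT, which contains ATTTA, occurred in 3 of 9 members, namely Fos, Fosl2 and Maff, and in 7.06% of genes. A match is a run of letters and not a measured decay rate. The 30 bases with most ATTTA are shown for Fos (chr12:85477090-85477119, +) and Fosb (chr7:19303338-19303367, -), the pair that varied together, with ATTTA in capitals. The Fosb window holds the only match in its 3′ UTR and is otherwise rich in C. Its name below gives the search and not an AU-rich element. Fosb had 0.466 matches per kb of 3′ UTR, against a median of 1.24 over all genes tested.
Fos AU-rich site: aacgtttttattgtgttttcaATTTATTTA
Fosb AU-rich site: ctaatcccaaaccccacccccagctATTTA

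Promoters were described for the same pair, in the 250 bases before the RefSeq start (GRCm38.p6). RefSeq entries were found for 9 of the 10 members. Capitals mark TGACG, the core of the cyclic AMP response element TGACGTCA, and matches to the NF-kB site. The Fos window lies at chr12:85473640-85473889 (+) and the Fosb window at chr7:19310046-19310295 (-).
Fos promoter: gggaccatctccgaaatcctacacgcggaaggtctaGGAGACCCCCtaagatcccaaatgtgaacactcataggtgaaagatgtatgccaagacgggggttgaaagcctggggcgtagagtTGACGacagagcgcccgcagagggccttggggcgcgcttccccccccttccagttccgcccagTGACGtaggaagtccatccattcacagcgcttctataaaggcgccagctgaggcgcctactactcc
Fosb promoter: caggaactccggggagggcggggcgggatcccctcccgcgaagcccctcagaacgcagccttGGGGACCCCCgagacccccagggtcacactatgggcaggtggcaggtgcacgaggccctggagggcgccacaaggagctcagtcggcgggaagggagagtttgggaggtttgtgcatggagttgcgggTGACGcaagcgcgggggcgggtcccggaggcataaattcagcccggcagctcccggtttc

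On either strand, TGACG occurred in 6 of the 9 members (Fos, Fosb, Junb, Atf3, Maff and Batf) and in 17.8% of 32851 promoters. For each motif, a member counts when any of its RefSeq entries matches, while the percent is over single entries. The 2 are thus unlike units, and Maff has matches in more than 1 entry. In Fos the matches lie 129 to 125 and 66 to 62 bases before the start, and in Fosb 60 to 56 bases before it. The full TGACGTCA, which contains TGACG, occurred in Maff only among the 9, and in 1.55% of promoters. The variant TGACATCA occurred in Jun and Maff, 45 to 38 bases before the start in both, and in 2.93% of promoters. NF-kB sites were matched in Fos, Fosb, Fosl2 and Maff and in 7.25% of promoters. Neither TGACTCA, the classical AP-1 site (4.46% of promoters), nor the CArG box bound by SRF (1.47%) had a match in these windows of the 9 members. Sequence further from the start was not searched, so sites beyond the window would be missed.

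Genes around AP-1 were described from lists of known members. Other bZIP genes, which encode further possible partners, were all detected: 20 of 20 had 1 TPM or more, but only Nfe2l2, encoding NRF2, reached 100, at 116 ± 27.4 TPM (n = 3). Maf had 97.3 ± 22.2 TPM. Cebpb, encoding a C/EBP factor of inflammatory genes, had 45.1, 15.3 and 65.6 TPM in replicates 1, 2 and 3, and Cebpd was lowest at 1.30 ± 0.284 TPM. Like Junb and Jund, Cebpb was lowest in replicate 2, at 119, 26.7 and 157 CPM. Of these 20 genes, 14 passed the between-library test, near the 66.8% of all tested genes.

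Among 24 genes for kinases, phosphatases and factors upstream of Fos and Jun, 23 had 1 TPM or more. Dusp1, encoding a phosphatase that turns off MAP kinases, was highest at 233 ± 15.3 TPM. Mapk3, encoding the kinase ERK1, had 47.9 ± 13.5 TPM and Mef2c, encoding a factor that binds the Jun promoter, 28.5 ± 9.28 TPM. Rps6ka5, encoding the kinase MSK1, was lowest at 0.663 ± 0.175 TPM. The between-library test called 19 of the 24, and 66.8% of all tested genes.

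Of 15 known AP-1 target genes, 13 reached 1 TPM and 5 reached 100 TPM. Spp1, encoding osteopontin, had 980 ± 336 TPM, Tnf 420 ± 145 TPM and the cell-cycle inhibitor gene Cdkn1a 174 ± 40.7 TPM. The protease gene Mmp9 was lowest, at 0.197 ± 0.0802 TPM. Of 14 targets tested, 4 were lowest in replicate 1, as Fos and Fosb were, and 5 were highest there, both near the shares of all tested genes (31.0% and 29.8%). Tnf had 1703, 714 and 812 CPM, highest in the library where Fos and Fosb were lowest. The between-library test called 13 of the 14, against 66.8% of all tested genes.

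The genes whose products degrade AP-1 proteins or their messages were represented by 7 measured genes. Of these 7, 6 were called, against 66.8% of all tested genes. Zfp36, encoding tristetraprolin, which binds AU-rich elements, had 534, 587 and 554 TPM (558 ± 26.5, n = 3). Its relatives Zfp36l1 and Zfp36l2 had 117 ± 31.6 and 55.9 ± 2.07 TPM. Det1, encoding a part of a ubiquitin ligase for c-Jun, was lowest at 1.67 ± 0.354 TPM.

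Several members overlap other genes in the annotation, and the strand setting of the counting is not stated in the labels or headers. Reads of Jun and of the antisense gene Junos (7.08, 27.2 and 19.3 counts) may thus be mixed, as may those of Junb and Prdx2 (1906, 4281 and 2619 counts), whose overlap lies at the end of the minor transcript Junb-202. The small RNA gene Gm24748 inside Atf3 had 0 counts in each library.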

How the data were processed

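Cytosolic total RNA without ribosomal RNA was sequenced in 3 libraries, from 1 µg of starting RNA and 250 to 400 nt fragments, as stated per the labels. The files use mm10 and GENCODE M21, per the deposited readme files. Aligner, quantifier versions and the strand setting: not given in the sources used here. The columns of the deposited gene table and of the first transcript table are those of RSEM, and the second transcript table has those of kallisto. The deposited expected counts are the authors' read estimates without normalization. The authors' TPM are these counts over effective length, brought to a fixed total per library. The deposited percent column gives a transcript's share of its gene. The shares here were computed from transcript TPM, and the authors' posterior SD of counts was read as deposited. Of 81881 rows in the gene table, 55536 matched annotated genes; the rest, with 0.462%, 0.109% and 0.0969% of the counts, was left out.

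Rounded expected counts of each gene were tested for differences between libraries with the chi-square index of dispersion (Poisson sampling, mean count of 10 or more, Benjamini-Hochberg threshold 0.05). TMM factors and dispersions came from edgeR 4.0.16 in R 4.3.3 and alternative size factors from DESeq2 1.42.0. Log2 CPM used a prior count of 0.5, and log2 TPM a pseudocount of 1. Python 3.11.15 was used with scipy 1.17.1, numpy 2.4.6, matplotlib 3.10.9 and pandas 2.3.3. On simulated Poisson counts for 13249 genes, the between-library test recovered 46.9%, 75.6%, 82.7% and 100% of genes changed 1.25-, 1.5-, 2- and 3-fold in 1 library. It called 6 unchanged genes. The simulation had no spread between libraries beyond counting error, so these rates need not hold for the real libraries. Reads carry no molecular identifiers, so the limit for a count of 0 covers counting error only.

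The members and lists were chosen with earlier results of these data known. Named genes are all 10 members; in each list the 3 highest and the lowest member by mean TPM; the 3 protein-coding genes with deviations nearest to Fos; and genes overlapping a member. Malat1 is named beside its marker list. Some marker values and sequences are not reported here. S100a8, S100a9, Mpo and Csf3r were named after their values were seen. A symbol shared by 2 genes was taken from the one with more counts. Alternatives were other filters, thresholds, pseudocounts and scalings, the second transcript table and leaving out each library.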

Additional observations from a re-analysis of the deposited data

How the results depend on the processing

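The count of members called by the between-library chi-square test was 9 under every alternative tried except without replicate 3, where it was 8 and Batf was not called. Leaving out each library thus gave 8 to 9 members, 7 members at 10 TPM or more each time, a Fos minus Jun difference of 1.66 to 2.20 and 24.7% to 26.4% of Fosb TPM in transcripts without the 140-base segment. The share of all tested genes called ran from 33.1% without replicate 2 to 74.7% with a mean count of 100 or more, against 66.8%. With every gene that had a count entered it was 45.7%, and Fosl1 was tested and not called. The second transcript table gave 6 members at 10 TPM or more and CPM gave 8, against 7 as deposited. Fos stayed above Jun in each alternative, by 0.83 in CPM and by 2.06 in the second table. Mean levels in the second table moved by more than 1 SD for 9 of 10 members, for example to 280 TPM for Fos and 93.7 TPM for Atf3, while other settings moved none. The Fos-202 share was 43.0% there. The deviations of Fos, Fosb, Maff and Jun in replicate 1 kept their sign under each scaling, an alternative chosen after seeing the data. No paired analysis was possible because the series has 1 group. The spread of replicates cannot be split into biological and technical parts here.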
